A study of Mus musculus with 2 samples.

Results

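The miR-30 family of the mouse was described in the newborn kidney through its 6 genes Mir30a, Mir30b, Mir30c-1, Mir30c-2, Mir30d and Mir30e, which were taken by name from 1973 counted microRNA genes. All 6 genes had a row in the tables, and all 6 had counts in each library. MicroRNA sequencing of total RNA had been done on whole kidneys of B6NCrl mice at postnatal day 0, with 2 kidneys of 1 pup in each library. Pup 1 and pup 2 came from the same pregnancy, carry no stated treatment or mutation, and form 1 group of 2 biological replicates, so no test between conditions exists. Sex was not collected. Values are CPM, which are read counts on the strand of a gene scaled to the total of all named genes, or percent of those counts, with mean ± SD over n = 2 pups.

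MicroRNAs are cut from hairpin transcripts as mature strands, named 5p and 3p after the arm of the hairpin, and they repress messenger RNAs that match their seed, the bases 2 to 8. The miR-30 5p strands are known from epithelial cells, among them those of the nephron. In Xenopus, miR-30 is known to be needed for the pronephros, the larval kidney, where it represses the nephron regulator Lhx1. Podocytes, the filtering epithelial cells of the glomerulus, are known for abundant miR-30. In whole kidney, fewer cells of a type and less RNA per cell cannot be told apart.

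The mature strands below are those of the members with an entry in the RefSeq table (build GRCm38.p6), which were 4 of 6 genes, namely Mir30a, Mir30c-1, Mir30c-2 and Mir30e. They are shown because these members share their 5p seed, split into groups by their 3p seed, and differ little enough for reads of some genes to match more than 1 place. Capitals mark the seed, and all are written 5′ to 3′.
miR-30a-5p: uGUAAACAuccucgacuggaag
miR-30e-5p: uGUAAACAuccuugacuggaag
miR-30c-5p: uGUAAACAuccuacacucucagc
miR-30a-3p: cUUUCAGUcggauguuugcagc
miR-30e-3p: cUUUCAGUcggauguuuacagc
miR-30c-1-3p: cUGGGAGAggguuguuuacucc
miR-30c-2-3p: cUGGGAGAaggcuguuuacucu

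All 5p strands shown have the seed GUAAACA, which 4 of 1679 mature names of that table hold, or 0.238%. Mir30b and Mir30d have no entry there, so that count leaves out their strands. Whether their hairpins share stretches with others was not looked at. The miR-30a and miR-30e strands differ by 1 base on each arm, C13U on 5p and G18A on 3p, with positions counted from 1 at the 5′ end and the miR-30a base first. Their 3p strands have the seed UUUCAGU. The 3p strands of Mir30c-1 and Mir30c-2 have the seed UGGGAGA and differ by 3 substitutions, G9A, U12C and C22U, with the miR-30c-1 base first. The 23 bases of miR-30c-5p stand in both the Mir30c-1 and the Mir30c-2 hairpin, whose longest shared stretch was 28 bases. For Mir30a and Mir30e the longest shared stretch of hairpin was 18 bases, and for every other pairing of these 4 hairpins it was 12. A whole miR-30c-5p read thus matches 2 places. Multimapping reads are kept in a row of their own that names no gene. Levels of Mir30c-1 and Mir30c-2 therefore leave out whole miR-30c-5p reads, in an unknown number. A count belongs to a hairpin, and the 5p and 3p strands were not separated.

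The 6 genes stand in 3 genomic pairs, each on 1 strand (coordinates on mm10, from GENCODE M21). On chromosome 4, minus strand, Mir30e (ENSMUSG00000065409.1) spans 120772606 to 120772697 and Mir30c-1 (ENSMUSG00000065490.1) spans 120769534 to 120769622, and 2983 bases separate them. Both are in introns of Nfyc, a protein-coding gene for a subunit of the transcription factor NF-Y, in each of the 6 Nfyc transcripts that span them. On chromosome 1, plus strand, Mir30a (ENSMUSG00000065405.2) spans 23272269 to 23272339, where no protein-coding or long non-coding host was found in that annotation. Mir30c-2 (ENSMUSG00000065567.1) follows from 23291701 to 23291784, after a gap of 19361 bases, inside an exon of the long non-coding RNA gene Gm27028. On chromosome 15, minus strand, Mir30d (ENSMUSG00000065437.1) spans 68341208 to 68341289, where the long non-coding RNA gene Gm20732 has an exon. Mir30b (ENSMUSG00000065476.2) lies on that strand from 68337415 to 68337510, 3697 bases away, and overlaps Gm26621, a gene of the processed transcript type, by 16 bases.

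**Figure D1:**
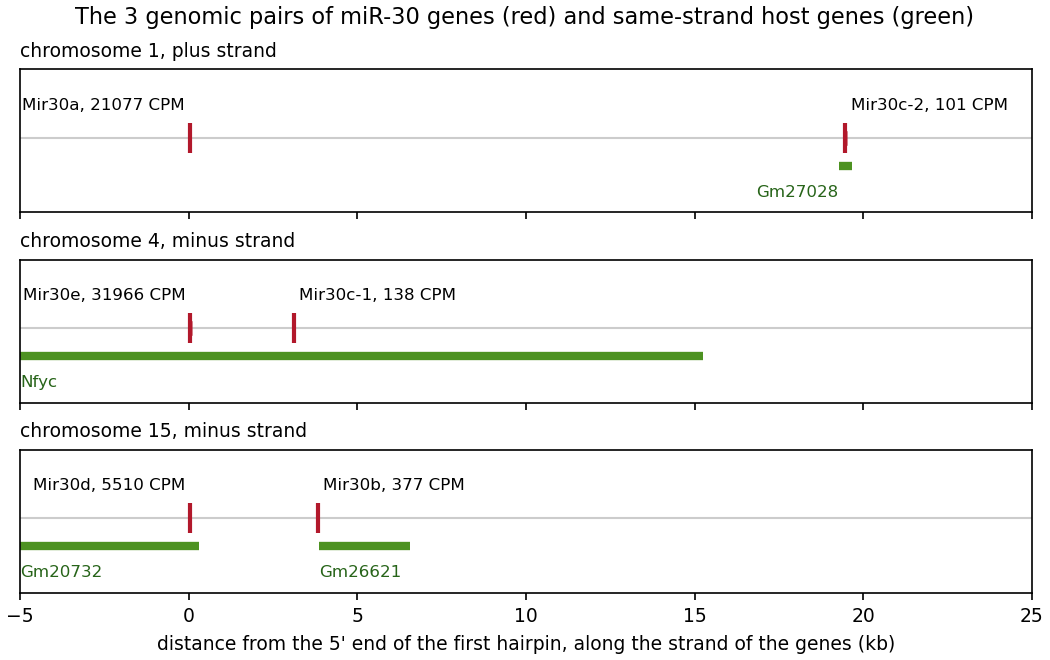
Each panel shows 1 genomic pair, with the hairpins as red marks and annotated host genes of the same strand as green bars (clipped at the panel edge), against the distance in kb from the 5′ end of the first hairpin. Labels give mean CPM of both pups; in each panel the first hairpin has the higher level, as 21077 CPM for Mir30a and 101 CPM for Mir30c-2.

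Pup 1 gave the family 6.30% of its counts, with 6.28 to 6.32 as the 95% Wilson interval, and pup 2 gave it 5.53% (5.51 to 5.55), for a mean of 5.92% ± 0.545. Intervals here cover only the counting error of reads within 1 library. Amplified reads that carry no molecular identifier can be copies of 1 molecule, so the intervals may be too narrow even for that. The pups were further apart than the intervals. Depth was 5832192 counts in pup 1 and 3846704 in pup 2, or 58.2% and 57.4% of reads, while multimapping reads made up 30.3% and 31.0%. As a check of the tissue, the listed kidney and Hox region genes Mir10a, Mir10b, Mir196a-1, Mir196a-2 and Mir196b summed to 252411 CPM in pup 1 and 242184 CPM in pup 2, and the miR-200 genes of epithelium to 31551 and 31660 CPM. Markers of striated muscle summed to 5.14 and 4.42 CPM and those of neurons to 1.54 and 2.08 CPM. At 0 counts were 4 of 5 muscle genes (Mir1a-1, Mir133a-1, Mir133a-2, Mir133b) and 3 of 5 neuronal genes (Mir124a-1, Mir124a-2, Mir124a-3). Multimapping reads belong to no gene here, so genes with the same mature strand at several places can stand at 0 counts. These low values thus cannot show that muscle or nerve was absent.

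Within the family, 3 genes carried nearly all counts. Mir30e, the Nfyc gene, had 34320.5 CPM in pup 1 and 29611 CPM in pup 2, which were 200164 and 113905 counts. Mir30a had 22401 CPM in pup 1 and 19754 CPM in pup 2. Mir30d had 5718 CPM in pup 1 and 5302 CPM in pup 2. Each of these genes was higher in pup 1. Together they held 99.0% ± 0.176 of the counts of the family, of which Mir30e gave 54.0% ± 0.656, Mir30a 35.6% ± 0.117 and Mir30d 9.33% ± 0.363.

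The 3 other genes were far lower, and each had the higher CPM in pup 2. Mir30b had 351 CPM in pup 1 and 403 CPM in pup 2, which were 2050 and 1552 counts. Mir30c-1 had 136 CPM in pup 1 and 140 CPM in pup 2, from 795 and 540 counts. Mir30c-2 had 95.3 CPM in pup 1 and 106 CPM in pup 2, from 556 and 407 counts. Only for Mir30b were the 95% Wilson intervals of the pups apart, at 337 to 367 CPM in pup 1 and 384 to 424 CPM in pup 2. These 3 genes held 1.05% ± 0.176 of the counts of the family. For Mir30c-1 and Mir30c-2 that share is of reads that could be placed, as described for their shared 5p strand.

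**Figure D2:**
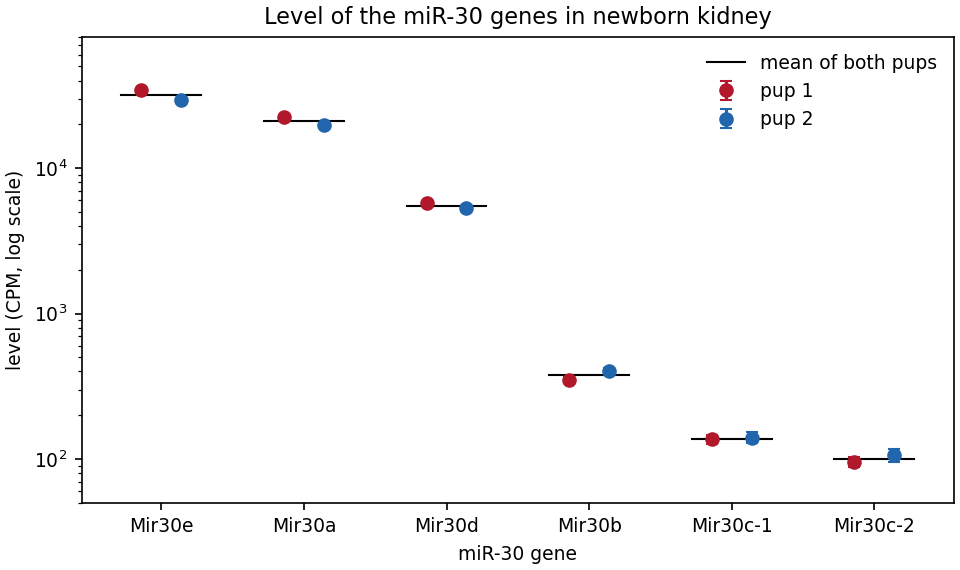
Level of each miR-30 gene in CPM (log axis) in pup 1 and pup 2, with 95% Wilson intervals of counting error and a bar at the mean. Mir30e, Mir30a and Mir30d sit between 5302 and 34320.5 CPM, and Mir30b, Mir30c-1 and Mir30c-2 between 95.3 and 403 CPM.

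The order Mir30e, Mir30a, Mir30d, Mir30b, Mir30c-1, Mir30c-2 was the same in both pups, and the means of the first and last gene were 318-fold apart. Mir30e exceeded Mir30a 1.52-fold, and that gap of 10888 CPM was 3.27 times the larger SD of the 2 genes. Mir30a exceeded Mir30d 3.83-fold, with a gap of 8.32 times the larger SD. The largest step was that of 14.6-fold between Mir30d and Mir30b. Mir30b exceeded Mir30c-1 2.73-fold, and Mir30c-1 exceeded Mir30c-2 1.38-fold, a gap of 5.10 times the larger SD. No 2 neighbours in that order were thus closer than their spread, although 2 pups measure that spread poorly. Ratios between genes are ratios of reads, since the capture of single microRNAs into a library can differ and was not calibrated here. Counts of Mir30c-1 and Mir30c-2 lack whole miR-30c-5p reads, so their places in the order and the 318-fold span hold for counted reads only.

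Among all microRNA genes, Mir30e ranked 9 and Mir30a 15 by mean CPM, each with the same rank in both pups. Mir30d ranked 27, Mir30b 103, Mir30c-1 157 and Mir30c-2 165. The genes closest in level, taken as the 2 above and the 2 below each member in mean CPM over the 2 pups, are given next. For Mir30e they were Mirlet7i (38857.5 ± 3156 CPM) and Mir143 (36917 ± 2966), above it, and Mir26b (29711 ± 1226) and Mir130a (29536 ± 372), below it, and its distance from Mir26b and Mir130a was within its SD of 3330 CPM. Mir30a stood between Mir23b and Mir196b above and Mir17 and Mir429 below. Its distance from Mir196b (22510 ± 1054 CPM) and Mir17 (19249 ± 1401) was within its SD of 1872 CPM. In each pup, however, Mir30a was below Mir196b and above Mir17. Mir17 belongs to the miR-17~92 cluster, known from nephron progenitors, and Mir429 to the epithelial miR-200 family. Mir30d stood among Mir93, Mir98, Mir106b and Mir130b, and its distance from Mir98 (5713 ± 2.13 CPM) and Mir106b (5337 ± 25.2) was within its SD of 294 CPM.

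Mir30b had nearly the mean level of Mir204, a microRNA known from mature tubule, at 377 ± 36.7 against 378 ± 28.7 CPM. The other neighbours of Mir30b were Mir148b, Mir186 and Mir374b, all within its SD. Mir30c-1 stood among Mir500, Mirlet7a-2, Mir451a and Mir375, and Mir30c-2 among Mir574, Mir598, Mir701 and Mir29a. Mir451a, an erythroid microRNA, had the mean of 131 CPM nearest below Mir30c-1 from very different libraries, 208 CPM in pup 1 and 53.6 CPM in pup 2.

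**Figure D3:**
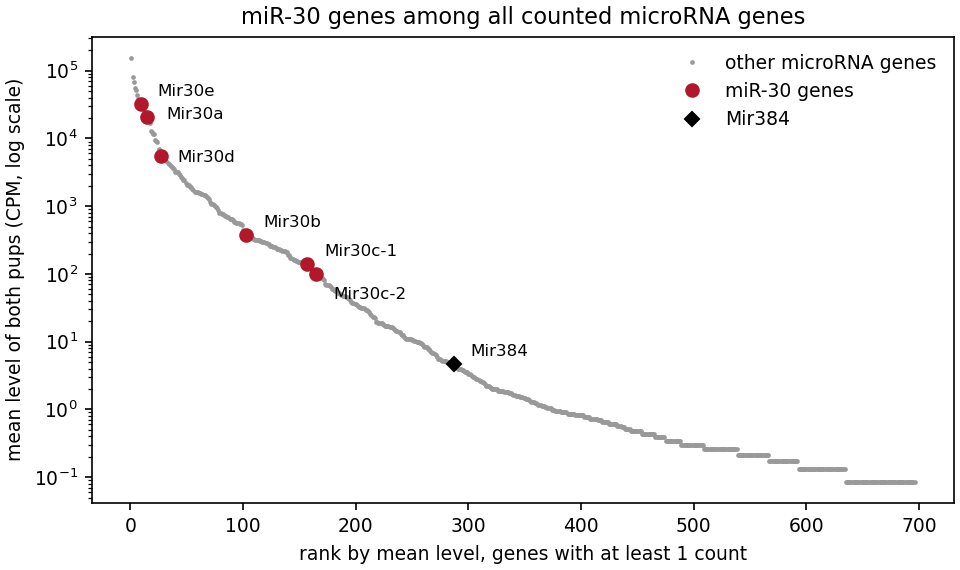
Mean level of both pups in CPM (log axis) against rank for genes with at least 1 count, with the miR-30 genes in red and Mir384 in black. The family reaches from rank 9 to rank 165, and Mir384, with the same seed, stands at rank 287.

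The pairs were then compared within themselves, where the scaling of a library cancels. Mir30e exceeded its neighbour Mir30c-1 252-fold in pup 1 (95% Wilson interval 235 to 270) and 211-fold in pup 2 (194 to 230). Mir30a exceeded Mir30c-2 235-fold in pup 1 (216 to 255) and 187-fold in pup 2 (169 to 206). Mir30d exceeded Mir30b 16.3-fold in pup 1 (15.6 to 17.0) and 13.1-fold in pup 2 (12.5 to 13.8). In all 3 pairs the gene that comes first on the transcribed strand was the higher of the pair. The lower gene lacks whole miR-30c-5p reads in the pairs with Mir30c genes, and a ratio of counted reads can then exceed that of all reads.

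The pairs were set beside other neighbours. Over 151 pairs of consecutive microRNA genes on 1 strand within 50 kb, of which the higher averaged 10 counts or more, the median absolute log2 ratio of levels was 4.25, a 19.0-fold difference. In 57 of the 151 pairs the lower gene averaged under 10 counts, so that its ratio rests on few or no reads. In the other 94 pairs, a set chosen after the data were seen, the median was 2.35, a 5.08-fold difference. Pairs whose higher gene has few counts cannot be very unequal there. The log2 ratio of Mir30e over Mir30c-1 was 7.85, and 3 of the 94 pairs were more unequal. For Mir30a over Mir30c-2 it was 7.71, with 5 of 94 pairs more unequal, the Mir30e pair among them. For Mir30d over Mir30b it was 3.87, with 32 of 94 pairs more unequal. In the Mir30e and Mir30a pairs the lower gene lacks whole miR-30c-5p reads, so their places among the 94 pairs hold for counted reads only. Other pairs may be limited likewise, and some of the more unequal ones hold a gene that shares 22 bases with another hairpin. The order on the strand was also looked at after the values were seen, and the first gene was the higher in 49.7% of the 151 pairs and in 50 of the 94. Over the 135 pairs within 10 kb, which do not hold the Mir30a pair, the median was 4.08, and it was 2.51 where both genes averaged 10 counts or more.

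**Figure D4:**
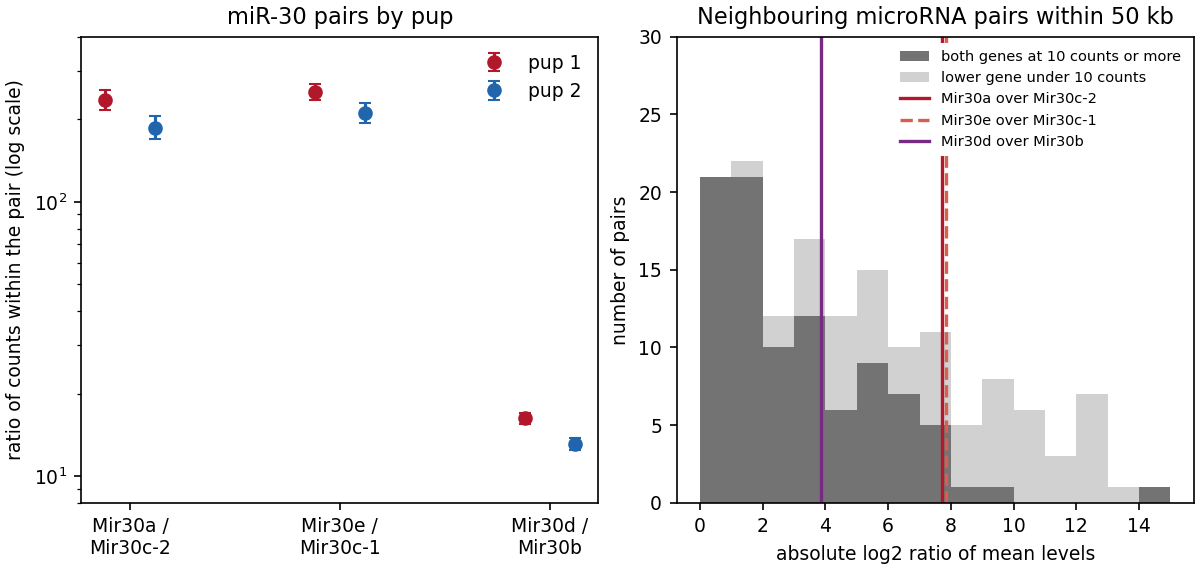
Left, ratio of counts within each miR-30 pair (log axis) in pup 1 and pup 2 with 95% Wilson intervals; right, number of neighbouring microRNA pairs within 50 kb by absolute log2 ratio of mean levels, stacked as pairs whose genes both averaged 10 counts or more (dark) and pairs with a lower gene under that (light), with the 3 miR-30 pairs as lines. Ratios were 252 and 211 for Mir30e over Mir30c-1, 235 and 187 for Mir30a over Mir30c-2, and 16.3 and 13.1 for Mir30d over Mir30b.

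Each pair ratio was larger in pup 1. The difference was 0.26 on the log2 scale for Mir30e over Mir30c-1 (95% interval 0.10 to 0.41), 0.33 for Mir30a over Mir30c-2 (0.15 to 0.52) and 0.31 for Mir30d over Mir30b (0.21 to 0.41). By Fisher's exact test, two-sided and adjusted over 94 neighbouring pairs whose genes both averaged 10 counts or more, these had adjusted p = 0.00797, 0.00271 and 9.36e-09. Of the 94 pairs 28.7% passed that test, and 13.8% passed with the larger ratio in pup 1, beside 3 of 3 miR-30 pairs. Pairs with many counts pass more readily, and no share over pairs of like counts was taken. The median absolute difference over the 94 pairs was 0.18, and 35.1%, 19.1% and 23.4% of pairs differed by more than the Mir30e, Mir30a and Mir30d pairs. The test compares the reads of 2 libraries and knows counting error only, and it cannot say whether other pups would differ in the same way.

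Taken gene by gene, with an exact two-sided binomial test of both counts against the TMM effective library sizes and Benjamini-Hochberg adjustment over the 324 genes that averaged 10 counts or more, 33.6% of genes passed, 21% as higher and 12.7% as lower in pup 1. Of the 6 members 4 passed. Mir30e was higher in pup 1 by 0.23 on the log2 scale (95% counting interval 0.22 to 0.24), Mir30a by 0.20 (0.19 to 0.22) and Mir30d by 0.13 (0.10 to 0.16). Mir30b was lower in pup 1, at -0.18 (-0.27 to -0.08), and the exact binomial test gave an adjusted p = 0.00132. Mir30c-2 at -0.13 (-0.32 to 0.06) and Mir30c-1 at -0.02 (-0.18 to 0.14) did not pass, and their intervals hold differences in either direction. The median of the 6 members was 0.05, beside 0.04 for all 324 genes.

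The median absolute log2 ratio over the 324 genes was 0.15, which Mir30e, Mir30a and Mir30b exceeded. Genes of low count spread more widely by counting error. Among 74 genes with a mean of at least 1000 CPM the median absolute log2 ratio was 0.09, and 8 of them differed by more than Mir30e, 13 by more than Mir30a and 26 by more than Mir30d. Abundant genes passed more often, since counting error is smaller for them. Of these 74 genes 77.0% passed, so the passing of Mir30e, Mir30a and Mir30d is near that share. With the dispersion of the pups in edgeR's exact test, 1 gene passed (Mir451a, 0.309% of genes) and none of the members did, each with an adjusted p of 1, while 14 genes had an unadjusted p under 0.05, none of them a member. That dispersion was estimated from the same 2 libraries, so the difference between the pups is part of the spread it was tested against, and few calls can be made that way.

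**Figure D5:**
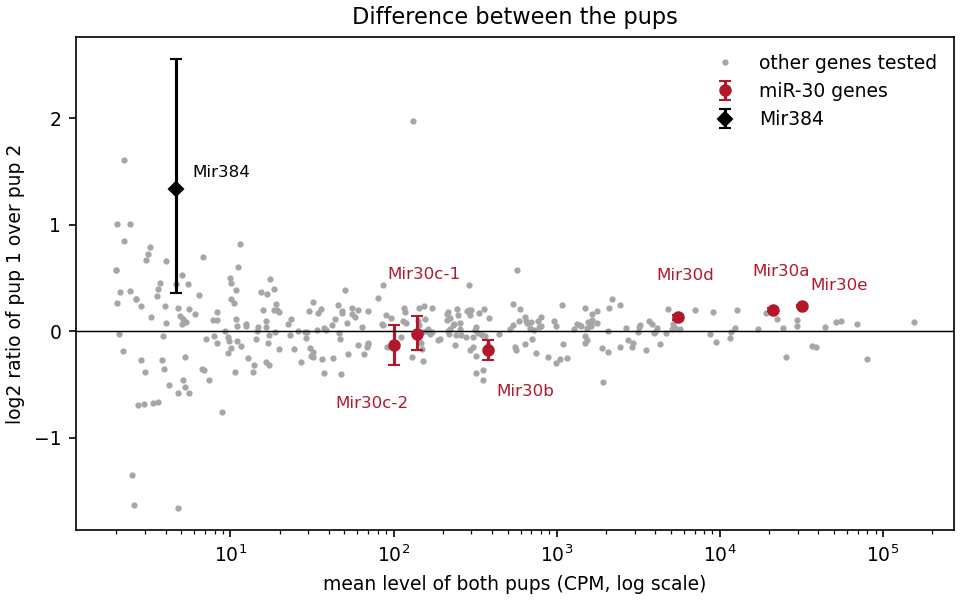
Log2 ratio of pup 1 over pup 2 against mean level in CPM (log axis) for the 324 genes tested, with the miR-30 genes in red and Mir384 in black, both with 95% counting intervals. Mir30e (0.23), Mir30a (0.20) and Mir30d (0.13) lie above 0, and Mir30b (-0.18), Mir30c-2 (-0.13) and Mir30c-1 (-0.02) lie below it.

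Markers of other cells moved with the pups too, and their part in the miR-30 difference was not tested. The 3 erythroid genes summed to 241 CPM in pup 1 and 98.8 CPM in pup 2, but went both ways, with Mir451a higher in pup 1 by 1.98 on the log2 scale and Mir144 lower at -0.39. The endothelial Mir126a had 71968 CPM in pup 1 and 87209 CPM in pup 2. The 6 mesenchyme and smooth muscle genes summed to 40300 CPM in pup 1 and 44552 CPM in pup 2, a sum led by Mir143, and went both ways, with 1 passing as higher and 2 as lower in pup 1 and a median log2 ratio of 0.09. The 6 genes of the miR-17~92 cluster summed to 34201 CPM in pup 1 and 31136 CPM in pup 2, with 3 passing as higher in pup 1 and 0 as lower. Of the tubule genes Mir192, Mir194-1, Mir194-2, Mir215 and Mir204, which summed to 1206 CPM in pup 1 and 1295 CPM in pup 2, 1 passed as higher and 2 as lower. Of the 5 miR-200 genes, 2 passed as higher and 1 as lower, and the 3 leukocyte genes with a row summed to 611 CPM in pup 1 and 561 CPM in pup 2. Mir122 of liver had 56.9 CPM in pup 1 and 44.2 CPM in pup 2. The 4 pancreas genes summed to 119 and 142 CPM, of which Mir375 gave 117 and 141 CPM, while Mir216a had 0 counts.

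Other families are given beside miR-30. The mean share of counts was 5.92% ± 0.545 for miR-30, 11.8% ± 0.155 for let-7 and miR-98 and 3.16% ± 0.0077 for miR-200. The log2 ratio of the summed counts was 0.21 for miR-30 (95% counting interval 0.20 to 0.22), -0.0056 for the 10 let-7 and miR-98 genes (-0.011 to -0.00019) and 0.016 for the 5 miR-200 genes (0.0057 to 0.027). Whether the families differ was not tested. The leading genes were Mir30e at 54.5% and 53.5% of its family in pup 1 and pup 2, Mirlet7g at 45.1% and 42.4%, and Mir429 at 54.4% and 54.3%. Multimapping reads belong to no gene, so these shares and leading genes hold for counted reads only. In let-7 this matters too, since Mirlet7a-2 shares a stretch of 22 bases with another hairpin.

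Relatives of the members outside the 6 genes were looked up by seed and by name.
miR-384-5p: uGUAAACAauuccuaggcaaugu
miR-30f: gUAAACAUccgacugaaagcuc
The first has the miR-30 seed, and the second carries it 1 base further to the 5′ end, so that its bases 2 to 8 read UAAACAU. Mir384 (ENSMUSG00000065499.1, minus strand of chromosome X from 105344282 to 105344369) had 39 counts in pup 1 and 10 in pup 2, or 6.69 CPM (95% Wilson interval 4.89 to 9.14) and 2.60 CPM (1.41 to 4.79). The counts of the 6 miR-30 genes exceeded it 9425-fold in pup 1 and 21279-fold in pup 2. It was higher in pup 1 by 1.33 on the log2 scale (0.36 to 2.55), where the exact binomial test gave an adjusted p = 0.0182, and did not pass with the dispersion of the pups (adjusted p = 0.759 by edgeR's exact test). Mir30f is annotated opposite to Mir30e and has no row of its own. Reads opposite to Mir30e were 0 in both pups, which allows up to 0.514 CPM in pup 1 and 0.780 CPM in pup 2, and each of the other 5 members also had 0 opposite reads.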

How the data were processed

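The members and lists were chosen with earlier results of these data known. The authors' deposited tables hold raw read counts per microRNA gene in 3 columns without a header. Reads were aligned to mm10 and counted over annotation M4, per the deposited notes; for the aligner, the name is not given in the sources used here. Of the 3 columns, the one whose values mark it as the sense strand was used. Rows that name no gene (41.8% and 42.6% of reads in pup 1 and pup 2) stayed out of totals and tests. Of 1973 genes 1894 matched GENCODE M21 by identifier.

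Computed here were CPM, Wilson intervals, log2 ratios between pups with a prior count of 0.5, TMM sizes (edgeR 4.0.16), exact binomial and Fisher's exact tests (scipy 1.17.1) with Benjamini-Hochberg adjustment at 0.05, and DESeq2 1.42.0 size factors as an alternative. Since adjusting over the members alone would not be independent of their choice, Fisher p-values are adjusted over all neighbouring pairs. The genes named are the members, relatives by seed or symbol, the 2 nearest genes in level on either side, and listed markers; Mirlet7g, the leading gene of its family, falls outside that rule and was chosen after its values were seen. On simulated data of the pups with counting error only, the binomial test called 1.59% where no change was set (126 genes), 78% at a 1.5-fold change (100) and 97.0% at a 3-fold change (99).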

Additional observations from a re-analysis of the deposited data

How the results depend on the processing

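The family share of 5.92% was 3.42% with all reads of a library as total and 7.00% without Mir10a in the total, and moved by less than its SD under TMM, DESeq2 size factors, counts on either strand and without the Mir30c genes. Leaving out 1 pup gave 5.53% to 6.30%, and pair ratios of 211 to 252 for Mir30e over Mir30c-1, 187 to 235 for Mir30a over Mir30c-2 and 13.1 to 16.3 for Mir30d over Mir30b. The 109 genes called between the pups became 1 with edgeR's exact test, under which Mir30e, Mir30a, Mir30d, Mir30b and Mir384 did not pass; its dispersion holds the difference between the pups by construction. No other alternative ended a call of a member, and none turned a direction. The median log2 ratio of neighbours within 10 kb, 4.08, was 4.25 within 50 kb. It was 4.53 with a mean count of at least 100 in the higher gene. Without pairs in which a gene is known to share a stretch of 22 bases, it was 3.90. Sharing was looked up only for the 869 of 1973 genes with a hairpin in the RefSeq table. Genes without one were counted as not sharing. As an alternative added after seeing the data, the median was 2.51 with both genes at a mean count of at least 10. A ratio between pups has no value without 1 pup. No paired analysis was possible because there is 1 group. Levels of Mir30c-1 and Mir30c-2 leave out whole miR-30c-5p reads, which are multimapping. For Mir30b and Mir30d the sharing of stretches was not looked at.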
